A study of Lactuca sativa var. capitata with 10 samples.

Results

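In lettuce roots 72 h after transplanting, 86 of the 38293 genes counted were almost silent in potting soil (PS) and had a higher mean level in chitin-amended soil (PS+CH), mostly through 3 of its 5 pools. They were chosen by their read levels in both treatments. CPM, the counts of a gene scaled to a common library total, had to have a mean under 0.5 over the 5 PS pools and of at least 0.3 over the 5 PS+CH pools. The PS+CH mean also had to be at least 3 times the PS mean, with at least 3 counts in 2 or more PS+CH pools. These thresholds were met by 91 genes, of which 5 were left out by name (the chalcone synthases LSAT_2X42860 and LSAT_2X76880, dihydroflavonol 4-reductase, MYB111 and the photosystem II protein PSB28). Since the rule uses the difference between the treatments, the levels below describe the genes and are not tested.

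All plants were wild-type butterhead lettuce (Lactuca sativa var. capitata, cultivar Alexandria), moved at the 3 to 4 true leaf stage into 1 L of peat-based potting soil in a greenhouse whose climate was not strictly controlled. PS had no addition, and PS+CH held 2 g of crab-shell chitin flakes per L. Both soils were wetted and kept closed for 1 week before use. Each treatment had 5 replicates, and each replicate was the washed roots of 5 randomly chosen plants, pooled for RNA-Seq. In such pools a gene active in few cells, or in few of the 5 plants, cannot be told apart from one weakly active in many. Replicates are numbered as in the sample titles. The count columns carry other codes, in which PS+CH replicates 1 to 5 have the codes 2, 3, 4, 5 and 6, so that PS+CH replicate 2 is the column with code 3, and PS replicate 5 has code 6. Total counts per library lay between 17624520 and 18545790, so that 1 count was worth 0.0539 to 0.0567 CPM. The levels count reads and are not scaled by gene length, so that they compare pools and not genes.

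Chitin is the polymer of fungal cell walls and arthropod shells, and plants detect its fragments through receptors at the cell surface that start defense responses. Among the downstream products are phenolic compounds such as flavonoids, made from chalcones by a chain of enzymes under the control of MYB and bHLH transcription factors. Genes of such inducible or tissue-specific pathways can be nearly silent in an organ until a signal, or a cell type that uses them, is present.

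The locus tags in the counts carry no gene names, and the gene table of the Salinas reference at hand pairs none of them with a product. The only members with a name were the 5 for which the study designed RT-qPCR primers. They encode glutathione S-transferase F11 (GST, LSAT_3X87760), which belongs to the enzymes that join glutathione to other molecules, and the magnesium dechelatase SGRL (LSAT_6X97181), a relative of the stay-green enzymes that take magnesium out of chlorophyll. The other 3 encode a lecithin-cholesterol acyltransferase-like protein 1 (LCAT, LSAT_9X81040), of a family of lipid acyltransferases, salicylic acid-binding protein 2 (SABP, LSAT_3X91921), which in tobacco releases salicylic acid from its methyl ester, and the bHLH transcription factor BHLH42 (RLL1, LSAT_5X190001), whose relative in Arabidopsis acts in anthocyanin and proanthocyanidin synthesis. Their primers are shown because the list that holds them is the only source used here that pairs a name with the locus tag of a member. No primer was matched to a gene sequence here. In the study, most RT-qPCR targets were not analyzed because their levels were too low, and none of those analyzed differed significantly. Its text does not name these 5 genes on either side. It describes the analyzed targets as having RNA-Seq log2-fold changes below 1. The log2 ratios of mean CPM of these 5 genes were 1.65 to 4.77 here. The primers are written 5′ to 3′ as in the primer list of the study, which has a second pair (LCAT1) for the LCAT gene. Capitals mark the 14 bases that the reverse primer of GST shares with the reverse primer of ARP14 (auxin-responsive protein IAA14, LSAT_3X125741), a gene that is not among the 86. Whether this run is in both genes or is an error of the list was not tested.
GST forward: caagtcccggttgttgagga
GST reverse: agtgatGCGCTTCGACTTCT
ARP14 reverse: GCGCTTCGACTTCTagccat
SGRL forward: ttttaggccctccagcaacc
SGRL reverse: cctctcagctggtcatggtg
LCAT forward: caagagcttggctacaccga
LCAT reverse: ggttgaggagttggaggacg
LCAT1 forward: gggagtgtggtggtcaatgt
LCAT1 reverse: gccagctcgtccccttatac
SABP forward: aagccaacatcctaccgatgg
SABP reverse: ctcctcatctccggtggttg
RLL1 forward: accaaccagtcaacttggca
RLL1 reverse: cggcgcgatttttcgaatct

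The genes were not raised in all chitin-treated pools. Summed over the 86 genes, PS pools 1 to 5 had 4.56, 14.8, 8.73, 18.1 and 13.8 CPM. PS+CH pools 1 to 5 had 15.3, 244 (replicate 2), 50.9, 9.71 and 74.1 CPM. Thus 3 of the PS+CH pools (replicates 2, 3 and 5) were above every PS pool, while replicates 1 and 4 lay within the range of the PS pools. The summed CPM averaged 78.8 ± 96.1 (SD, n = 5) with chitin and 12.0 ± 5.33 (SD, n = 5) without. The ratio of these means was 6.58, and 3.13 when PS+CH replicate 2 was left out. That replicate alone held 4527 of the 7212 reads that the 86 genes had in PS+CH, or 62.8% (exact binomial interval 61.6 to 63.9%, counting error only), where an even spread would give 20%. A description as genes switched on by chitin in general therefore goes against the pools, and they are called near-silent genes higher in PS+CH here.

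**Figure D1:**
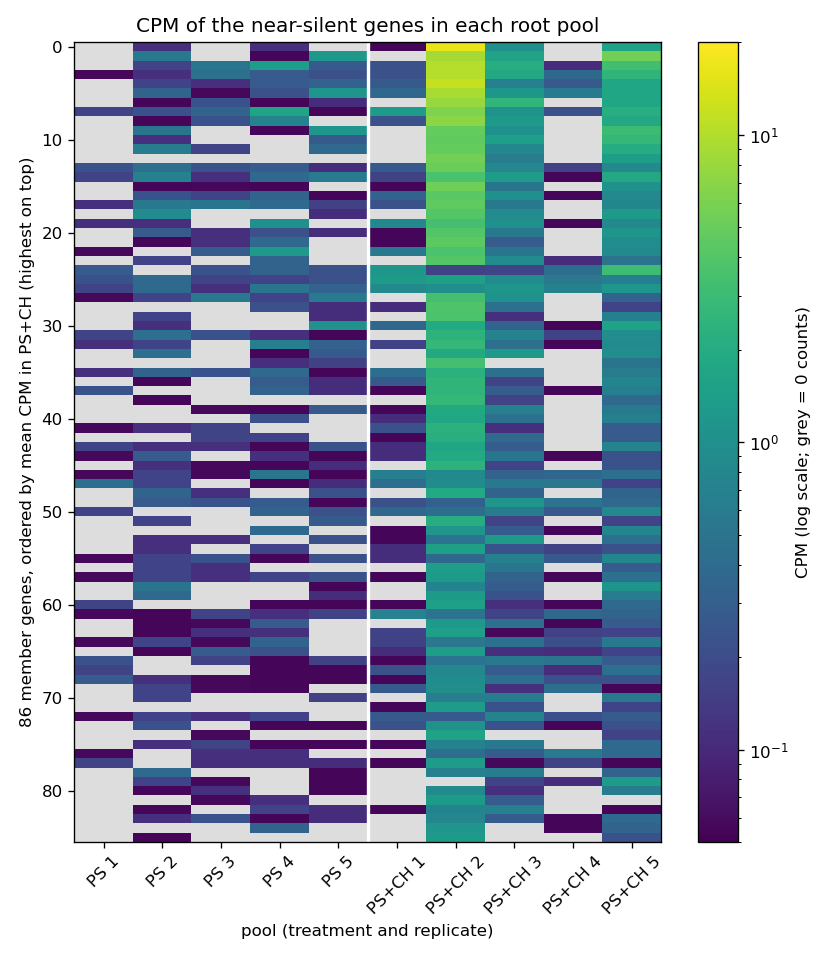
Expression of the 86 near-silent genes in each of the 10 root pools, as CPM on a logarithmic colour scale (grey cells have 0 counts), where rows are genes ordered by their mean in PS+CH and the white line parts the treatments. The column of PS+CH replicate 2 is brightest for 73 of the 86 genes, and replicates 1 and 4 look like PS for most rows.

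Gene by gene, PS+CH replicate 2 was the highest pool for 73 of the 86 genes (84.9%). Replicate 5 was the highest for 6, replicate 3 for 5, and replicates 1 and 4 for 1 gene each. Of all 28458 genes with counts, 11103 were highest in a PS+CH pool, and 26.6% of these were highest in replicate 2. In 63 of the 86 genes, replicates 2, 3 and 5 were the 3 highest PS+CH pools, and replicate 5 was above replicate 3 in 54. In replicate 4, 43 of the genes had 0 counts, in replicate 1 this held for 31, and in replicate 2 for 1. For 68 of the 86 genes neither replicate 1 nor replicate 4 exceeded the highest PS pool. Counted by gene, 4 of the 86 had 1 PS+CH pool above every PS pool, 28 had 2 pools, 41 had 3 pools, 9 had 4 pools and 4 had all 5. Over all genes with counts, 746 (2.62%) had every PS+CH pool above every PS pool.

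PS+CH replicate 2 stood apart beyond these genes. In this pool 114 genes of the whole table had at least 10 counts and at least 3 times the CPM of every other pool, 43 of them among the 86. In the other 9 pools, between 0 and 24 genes did so (24 in PS replicate 3).

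**Figure D2:**
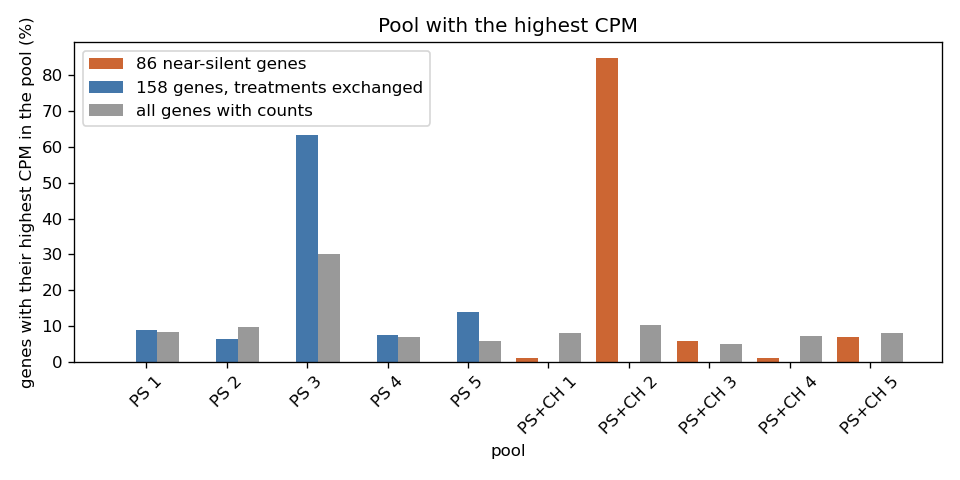
Percentage of genes whose highest CPM fell in each pool, for the 86 near-silent genes, for the 158 genes that the same thresholds take with the treatments exchanged, and for all 28458 genes with counts. Of the 86 genes, 84.9% are highest in PS+CH replicate 2, and of the 158, 63.3% are highest in PS replicate 3, which is also the highest pool for 30.1% of all genes.

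Among the 5 named genes, GST had the most reads. It had 0, 1, 4, 1 and 2 counts in PS replicates 1 to 5, and 0, 147, 46, 0 and 31 counts in PS+CH. With chitin the CPM averaged 2.45 ± 3.26 (SD, n = 5) and without it 0.0897 ± 0.0859 (SD, n = 5), a 27.4-fold difference, and 12.1-fold if PS+CH replicate 2 is left out. Replicates 2, 3 and 5 of PS+CH were above every PS pool, whereas replicates 1 and 4 had no read of this gene. For SGRL, PS pools had 0, 5, 2, 4 and 2 counts and PS+CH pools 1, 74, 10, 0 and 21. The CPM of 1.16 ± 1.65 (SD, n = 5) with chitin and 0.145 ± 0.109 (SD, n = 5) without were 7.97-fold apart, and 3.09-fold if PS+CH replicate 2 is left out. Again the same 3 PS+CH pools were above all PS pools.

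SABP had 0, 0, 1, 1 and 5 counts in PS and 1, 35, 12, 0 and 10 counts in PS+CH. This gave 0.636 ± 0.761 CPM (SD, n = 5) in PS+CH against 0.0774 ± 0.114 CPM (SD, n = 5) in PS, an 8.22-fold difference that was 4.18-fold without PS+CH replicate 2. For LCAT the counts were 0, 0, 0, 4 and 2 in PS and 2, 72, 8, 0 and 3 in PS+CH. Here 84.7% of the PS+CH reads came from replicate 2, only replicates 2 and 3 were above every PS pool, and the 13.9-fold difference between the means (0.923 ± 1.66 and 0.0666 ± 0.0995 CPM, SD, n = 5) was 2.75-fold without replicate 2.

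BHLH42 behaved differently from the other named genes. Its counts were 1, 3, 1, 6 and 0 in PS and 3, 10, 8, 4 and 10 in PS+CH, so that its highest pool was PS+CH replicate 5 and replicate 2 held 28.6% of the PS+CH reads. The CPM of 0.386 ± 0.184 (SD, n = 5) with chitin and 0.123 ± 0.133 (SD, n = 5) without were 3.14-fold apart, close to the threshold, and 5.50-fold if PS replicate 4 is left out. The treatments overlapped through PS replicates 2 and 4. With so few counts, neighbouring pools cannot be told apart.

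**Figure D3:**
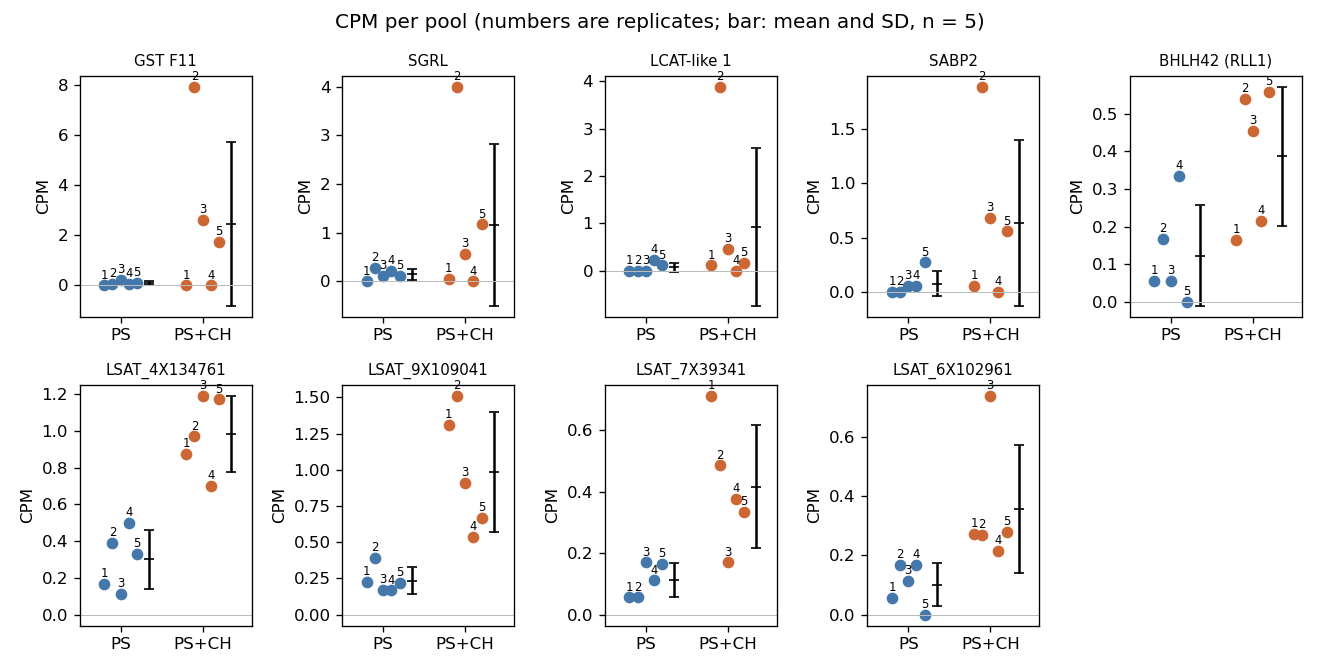
CPM in each pool for the 5 named genes (upper row) and the 4 genes whose PS+CH pools were all above their PS pools (lower row); numbers beside the points are replicates, and bars give the mean and SD of 5 pools. GST, SGRL, LCAT and SABP are high in PS+CH replicate 2 and at the PS level in replicates 1 and 4, whereas in the lower row every PS+CH point is above every PS point, in LSAT_7X39341 through library size alone.

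Most reads among the 86 genes came from genes without a name. LSAT_6X76240 had 0, 2, 0, 2 and 0 counts in PS and 1, 311, 18, 0 and 28 counts in PS+CH, so that 86.9% of its PS+CH reads were from replicate 2. Its ratio of means was 86.9, and 14.8 without that replicate. For LSAT_1X72901 the counts were 0, 10, 0, 1 and 22 in PS and 0, 165, 29, 0 and 99 in PS+CH, a ratio of 8.81 that was 4.92 without PS+CH replicate 2 and 20.9 without PS replicate 5. LSAT_9X117441 had 0, 3, 9, 26 and 5 counts in PS and 4, 191, 37, 2 and 58 in PS+CH, a ratio of 6.65 (2.95 without replicate 2). These genes share the order of PS+CH pools but not that of the PS pools, where LSAT_1X72901 was highest in replicate 5 and LSAT_9X117441 in replicate 4.

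LSAT_9X97280 had 1, 2, 8, 5 and 4 counts in PS and 4, 189, 33, 7 and 45 in PS+CH. LSAT_9X102320 had 0, 6, 1, 4 and 21 counts in PS and 7, 174, 21, 11 and 31 in PS+CH, and LSAT_7X34960 had 3, 4, 6, 30 and 1 in PS and 25, 117, 19, 4 and 39 in PS+CH. Their ratios of means were 13.6, 7.51 and 4.53, and 5.56, 2.76 and 2.46 without PS+CH replicate 2. In LSAT_7X34960, PS replicate 4 was above PS+CH replicates 1, 3 and 4, so that the pools of the treatments overlapped.

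Single PS pools also weighed on these ratios, since a mean of few reads can rest on 1 pool. Without PS replicate 4 the ratio was 33.6 for LCAT, 13.4 for LSAT_9X117441 and 11.3 for LSAT_7X34960. Without PS replicate 5 it was 22.6 for SABP and 17.3 for LSAT_9X102320. For GST the ratio was 44.3 without PS replicate 3, and for LSAT_6X76240 it was 139 without either PS replicate 2 or PS replicate 4. Each PS pool left out here was above the PS mean of its gene, so the ratio had to rise. Likewise PS+CH replicate 2 was above the PS+CH mean of each of these genes, so leaving it out had to lower the ratio. Only the size of these shifts is informative.

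No PS pool had a read of 2 genes. LSAT_8X66261 had 0, 103, 11, 0 and 25 counts in PS+CH. Its mean of 1.52 ± 2.33 CPM (SD, n = 5) was at least 45.2-fold higher than the 0.0335 CPM that 3 counts over all PS pools correspond to, and at least 15.1-fold without PS+CH replicate 2. LSAT_6X18120 had 1, 25, 4, 0 and 3 counts in PS+CH, and its mean of 0.360 ± 0.560 CPM (SD, n = 5) was at least 10.7-fold higher than the same floor, and at least 3.35-fold when replicate 2 is left out. A further 5 genes had 1 to 3 reads in PS as a whole. Among them, LSAT_6X76700 had 3 reads in PS and 127 in PS+CH, a ratio of 41.0 with an exact counting interval of 13.9 to 205. Without PS+CH replicate 2 the ratio was 12.1, below that interval, which covers counting error only.

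Only 4 of the 86 genes had all 5 PS+CH pools above all 5 PS pools, and in these PS+CH replicate 2 did not stand apart. LSAT_4X134761 had 3, 7, 2, 9 and 6 counts in PS and 16, 18, 21, 13 and 21 counts in PS+CH. Its means of 0.982 ± 0.207 and 0.301 ± 0.160 CPM (SD, n = 5) were 3.26-fold apart, and 3.27-fold without PS+CH replicate 2. The counts of LSAT_9X109041 were 4, 7, 3, 3 and 4 in PS and 24, 28, 16, 10 and 12 in PS+CH, a ratio of 4.21, and 3.65 without that replicate. In PS+CH the SD of both genes was smaller than the mean.

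For LSAT_7X39341 the counts were 1, 1, 3, 2 and 3 in PS and 13, 9, 3, 7 and 6 in PS+CH, a ratio of 3.72. Its lowest PS+CH pool and its highest PS pools had 3 counts each, so that only library size sets them apart. LSAT_6X102961 had 1, 3, 2, 3 and 0 counts in PS and 5, 5, 13, 4 and 5 in PS+CH, a ratio of 3.52, with 1 count between the nearest pools of the treatments. Summed over these 4 genes, PS+CH replicates 1 to 5 had 3.17, 3.24, 3.01, 1.83 and 2.46 CPM, and PS pools between 0.507 and 1.01 CPM. These 4 genes were picked for their lack of overlap, so that both their low levels in PS and their raised levels in PS+CH replicates 1 and 4 are part of the choice.

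The genes also differed in the PS pool in which they were highest. PS replicate 4 was the highest PS pool for 25 of them, and PS replicate 2 or 5 for 39. The remaining genes were highest in PS replicate 1 or 3 (20 genes) or had no PS reads (2 genes). With few counts, single genes may fall into either group by counting error, and the PS levels are fixed by the grouping while the PS+CH levels are not. The 25 genes summed to 8.20, 69.3, 15.2, 2.97 and 22.8 CPM in PS+CH replicates 1 to 5. For the 39 genes these sums were 4.48, 126, 25.1, 3.24 and 38.9 CPM. PS+CH replicate 1 therefore had 11.8% of the level of replicate 2 in the first group and 3.56% in the second, while replicates 3 and 5 had similar shares in both (21.9 and 33.0% against 19.9 and 30.9%). The level in replicate 1 rested on few genes. In the first group LSAT_7X34960 had 1.37 CPM there, LSAT_7X29921 1.20, LSAT_4X134761 0.875 and LSAT_4X28820 0.820. Of these, LSAT_7X29921 and LSAT_4X134761 were not highest in replicate 2. In the second group LSAT_9X109041 had 1.31 CPM in replicate 1.

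A list of 7 genes for green tissue that washed roots could still hold (3 photosystem I and 3 photosystem II proteins and the leaf-type ferredoxin-NADP reductase) was followed over the pools. The study chose these genes as higher expressed in these same samples. Their locus tags were assigned in earlier work on these data, in part through fold changes. Neither their names nor their direction are therefore independent evidence. None of the 7 is among the 86 genes, and PSB28 and photosystem I subunit IV A were left out by name. Their summed level was 3.83, 4.09, 3.00, 13.0 and 2.31 CPM in PS and 9.73, 48.0, 12.8, 2.75 and 16.1 CPM in PS+CH replicates 1 to 5. All 7 were highest in PS+CH replicate 2, and among PS pools all 7 were highest in replicate 4. Reads were absent only for subunit XI of photosystem I in PS replicate 1 and for PSB28 in PS replicate 5, and 5 of the 7 had a PS+CH mean of at least 3 times the PS mean. PS+CH replicate 1 had 20.3% of the level of replicate 2. The part of green tissue in the levels of the 86 genes was not tested.

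The flavonoid list held 6 genes named for enzymes and the regulators MYB111 and BHLH42, all taken from the primer list, whose targets the study selected with these samples known. Of these 8 genes only BHLH42 is among the 86. Of the others, 4 met the thresholds but were left out by name, chalcone isomerase-like protein 2 had 0.511 CPM in PS, above the limit of 0.5, and flavonoid 3'-monooxygenase had 3.40 CPM in PS. The last, chalcone synthase 3 (LSAT_4X147220), was lower in PS+CH, with 0.177 ± 0.0844 CPM (SD, n = 5) against 0.504 ± 0.193 CPM (SD, n = 5) in PS. The summed level of the list in PS+CH replicates 1 to 5 was 3.45, 112, 19.7, 2.10 and 36.8 CPM, against 2.08 to 7.45 CPM in PS pools. Flavonoid 3'-monooxygenase, which is not near-silent, alone held 55.8 CPM of the sum in PS+CH replicate 2 and 3.40 of the PS mean of 4.73 CPM. For the list as a whole, PS+CH replicate 1 had 3.07% of the level of replicate 2, and 6 of the 8 genes were highest in replicate 2. Both lists thus had the same PS+CH pool highest as the 86 genes.

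**Figure D4:**
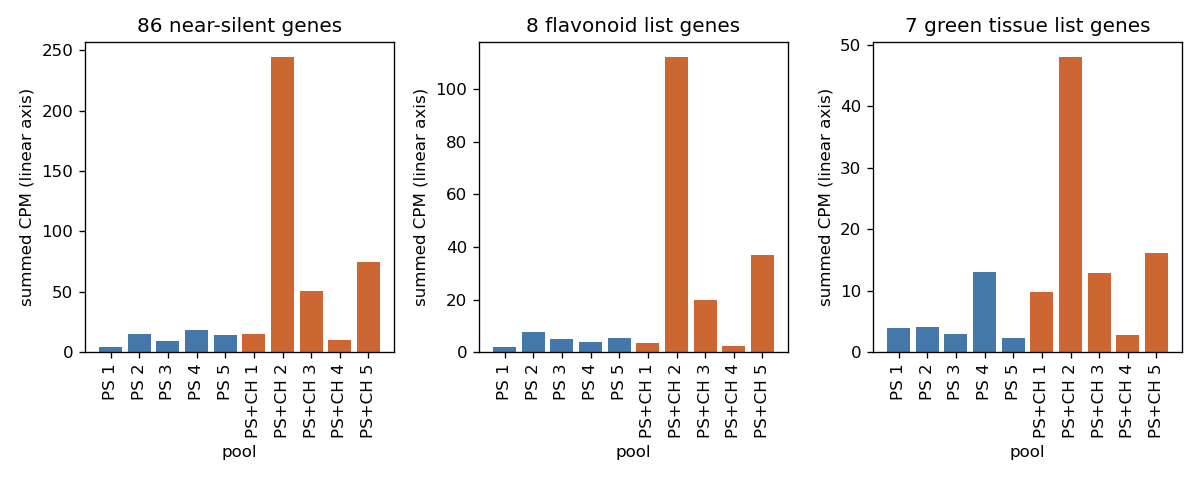
Summed CPM in each pool (linear axes, blue PS and orange PS+CH) of the 86 near-silent genes, the 8 genes of the flavonoid list and the 7 genes of the green tissue list. PS+CH replicate 2 is highest in all panels (244, 112 and 48.0 CPM), and PS replicate 4 stands out among PS pools only in the green tissue list (13.0 CPM).

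Some members lie close together in the genome annotation, as far as the numbering of the locus tags follows it. In tag order, 11 of the 86 genes (12.8%) were within 10 genes of another member, in 5 runs. Of the 158 genes taken with the treatments exchanged, 39 (24.7%) were in such runs. A larger set has more neighbours by chance alone, and the share for randomly picked genes was not computed. These shares are therefore not set against each other, and neither is read as clustering. The run with the most genes was LSAT_6X76240, LSAT_6X76441 and LSAT_6X76700, which lie within 8 genes of each other. LSAT_6X76441 had 0, 3, 2, 5 and 6 counts in PS and 5, 217, 12, 5 and 30 in PS+CH, and LSAT_6X76700 had 0, 1, 1, 1 and 0 in PS and 1, 98, 9, 0 and 19 in PS+CH. Of their PS+CH reads, 86.9, 80.7 and 77.2% were in replicate 2. Without that replicate the ratio of LSAT_6X76441 was 4.07 in place of 16.4.

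LSAT_1X72901 and LSAT_1X72921 carry consecutive tags. The latter had 0, 9, 0, 1 and 21 counts in PS and 0, 89, 18, 0 and 55 in PS+CH, so that its pools stood in the same order as those of its neighbour, apart from ties at 0. Its ratio was 5.19, 2.99 without PS+CH replicate 2 and 12.7 without PS replicate 5. How the counting treated reads that match both genes is not stated in the sources used here, and their sequences were not compared. The other runs were pairs. GST lay 8 tags before LSAT_3X87981, which had 0, 2, 3, 1 and 1 counts in PS and 1, 13, 10, 0 and 7 in PS+CH. LSAT_8X66261 lay 8 tags before LSAT_8X66520, which had 0, 1, 5, 4 and 0 counts in PS and 2, 26, 2, 2 and 3 in PS+CH. Within this pair the first had no PS read, while the second had PS reads and a PS+CH excess in replicate 2 only, with a ratio of 3.38, 1.11 without that replicate and 5.45 without PS replicate 3. LSAT_3X41120 and LSAT_3X41281 were 6 tags apart, and their highest PS+CH pools were replicate 3 (23 counts) and replicate 2 (35 counts).

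Which genes met the rule depended on PS+CH replicate 2. Without this pool 39 genes did, 29 of them among the 86 (74.4% of the new and 33.7% of the original set). Without each of the other 9 pools in turn, between 82 and 126 genes met the rule, and between 70 and 86 of these were members. In all 10 cases, 19 of the 86 genes met it, among them GST, SGRL, SABP, LSAT_9X109041 and LSAT_7X39341. LCAT and BHLH42 did not meet it in every case. The same held for LSAT_4X134761 and LSAT_6X102961, although their treatments did not overlap. Without PS+CH replicate 2, the PS+CH mean was at least 3 times the PS mean for 42 of the 86 genes, between 1 and 3 times for 42, and below the PS mean for 2. The median ratio was 5.58 with all pools and 2.98 without this pool.

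**Figure D5:**
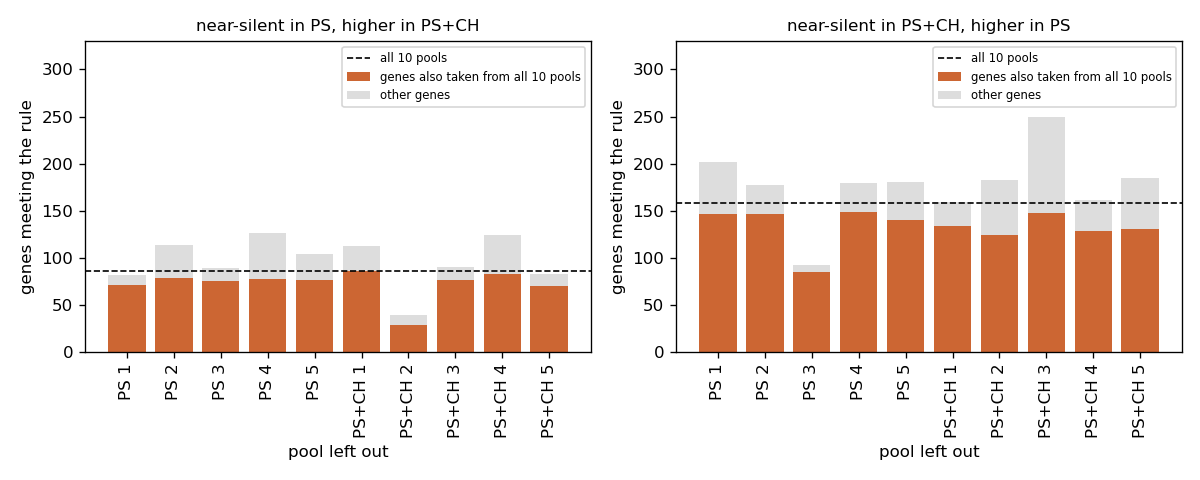
Number of genes meeting the thresholds when each pool is left out, for genes near-silent in PS (left) and, with the treatments exchanged, for genes near-silent in PS+CH (right); orange marks genes also taken from all 10 pools, grey marks others, and the dashed lines are at 86 and 158 genes. The left count drops to 39 without PS+CH replicate 2 and the right count to 92 without PS replicate 3. Genes were left out by name in the left counts only.

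With the treatments exchanged, the same thresholds took 158 genes that were near-silent in PS+CH. No gene was left out by name in this direction, so the like count in the first direction is 91 and not 86. Every PS pool was above every PS+CH pool in 51 of these, against 4 of the 86 in the other direction. Over all genes with counts, every PS pool was above every PS+CH pool in 8.58%, and every PS+CH pool above every PS pool in 2.62%. The shares thus differ between the directions over all genes. Whether this difference accounts for the 4 genes against the 51 was not tested. Both sets were chosen on this contrast, so the 4 genes are not read as a deficit. The 158 genes were also uneven over the pools, since 100 of them were highest in PS replicate 3 and 92 genes met the exchanged rule without that pool. Scaling by TMM factors, which correct library sizes for composition, gave 99 genes in the first direction, again without the genes left out by name, and 126 in the other. These factors were 1.01 to 1.08 in the PS pools and 0.949 to 0.986 in the PS+CH pools. CPM by column total are therefore higher in PS relative to PS+CH than scaled CPM. The shares over all genes used CPM by column total and were not recomputed with the factors.

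In a fit over the whole table (quasi-likelihood test of edgeR, adjusted p-value under 0.05 and log2-fold change of at least 1), 6 of the 86 genes passed the filter on low counts and 1 was called, LSAT_4X134761. Over all 21936 genes tested, 85 (0.387%) were called in this direction. Without the filter, 13 of the 86 genes and 109 of 28458 genes (0.383%) were called, and DESeq2 without this filter called 12 of the 86 and 132 genes (0.464%) in all. Without the filter and without PS+CH replicate 2, 3 of the 86 were called (LSAT_4X134761, LSAT_9X109041 and LSAT_9X97280), with 67 of 28302 genes (0.237%) overall. The members were chosen on this contrast, so nothing is read from these counts.

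At the edges of the rule, LSAT_6X42460 and LSAT_9X2301 were just inside the 3-fold threshold with ratios of 3.02 and 3.04, and LSAT_7X82120 and LSAT_7X86241 just outside it, both with 2.98. LSAT_7X34960 and LSAT_9X117441 were just under the PS limit with 0.492 and 0.480 CPM, while LSAT_4X37741 and LSAT_2X19341 were just above it with 0.513 and 0.519 CPM.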

How the data were processed

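The authors checked strand-specific mRNA reads with FastQC 0.11.9, aligned them with STAR 2.7.10 to the Salinas lettuce genome and counted them per gene with featureCounts 2.0.1. For the 10 root libraries the authors deposited raw counts of reads per gene, with no scaling (versions are those of the submitters' processing notes). All 10 columns were used. Strand and multi-mapping settings were not given in the sources used here.

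Members and gene lists were chosen with earlier results of these data known. CPM were counts divided by the column total. PS means of 0 were replaced by a floor of 3 counts over the 5 PS pools. Ratios are of mean CPM, without a pseudocount. Treatments and replicate numbers came from the sample titles, and columns were matched through the codes in the sample descriptions. Named genes were members with primers, the 8 with the highest PS+CH mean, up to 8 without overlap between treatments and at least 3 counts in every PS+CH pool, those with 0 PS reads, members within 10 tags of each other, those nearest the thresholds, and genes of the lists.

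The whole table was fitted in R 4.3.3 with edgeR 4.0.16 (TMM, filterByExpr with a minimum count of 10, glmQLFit). Alternatives were DESeq2 1.42.0, limma-voom (limma 3.58.1), other scalings, no filter, a replicate block, other thresholds of the rule and leaving out each pool. The fit was tested on simulated data. Each pool is 1 library, and intervals cover counting error only.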

Additional observations from a re-analysis of the deposited data

Results flagged for a closer look

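Among the 5 pools of a treatment, a pool was marked when its gap to the nearest other pool exceeded Dixon's 95% critical value (0.71 of the range). Chance gives this for about 1 in 20 groups of normally distributed values, but these sets are mostly members chosen for a high PS+CH mean, so that the numbers are a description and are not to be set against that rate. Of 29 sets of PS+CH values 11 were marked, 10 of them for PS+CH replicate 2, and of 27 sets of PS values 4 were marked. The summed level of the 86 genes was 244 CPM in PS+CH replicate 2. The same pool was far from the others for LSAT_6X76240 (16.8 CPM), LSAT_6X76441 (11.7 CPM), LSAT_9X97280 (10.2 CPM), LSAT_9X102320 (9.39 CPM), LSAT_8X66261 (5.56 CPM), LSAT_6X76700 (5.29 CPM), LCAT (LSAT_9X81040, 3.88 CPM), LSAT_8X66520 (1.40 CPM) and LSAT_6X18120 (1.35 CPM). PS+CH replicate 3 was marked for LSAT_6X102961 (0.738 CPM). In PS, replicate 4 was marked for the green tissue list (13.0 CPM) and for LSAT_7X34960 (1.67 CPM), replicate 5 for SABP (LSAT_3X91921, 0.275 CPM) and replicate 2 for LSAT_9X109041 (0.392 CPM). The causes were not tested.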

How the results depend on the processing

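The number of near-silent genes higher in PS+CH ranged from 39 to 126 with 1 pool left out, and was 51 with a 5-fold threshold and 51 with a limit of 0.5 CPM in PS+CH. For the exchanged rule the range was 92 to 249, with 35 and 99 genes at these 2 thresholds. TMM scaling, a limit of 0.25 CPM for the near-silent treatment and 3 counts in at least 3 pools left both numbers within 1.5 times. Members without overlap between treatments numbered 4 to 8 with 1 pool left out. The count of members called by edgeR (1) was 1 to 4 with 1 pool left out, 13 without the filter, 3 with DESeq2, and, chosen after seeing the data, 12 with DESeq2 without the filter and 3 by edgeR without the filter and PS+CH replicate 2. With the replicate number of the titles as a block, 3 members were called. Deviations of same-numbered pools correlated between -0.014 and 0.485, so the numbers were not taken as pairs. Pools with the same column code (4 pairs) correlated between -0.403 and 0.0203. With these codes as a block over those 8 pools, chosen after seeing the data, edgeR called 0 of 22064 genes and 0 of 14 members tested, with 5696 genes and 6 members at an unadjusted p under 0.05, and no other tool was run. The ratio of summed CPM ranged from 3.13 (without PS+CH replicate 2) to 8.02 with 1 pool left out, and was 5.86 without the 5 members with most reads. For the 26 named members, 0 of 286 alternative log2 ratios changed sign. All members were chosen for a ratio of at least 3, which left little room for a change of sign, so this is not read as stability. Without PS+CH replicate 2, the ratio was below 1 for LSAT_6X89861 (0.954) and LSAT_2X103220 (0.817), members that are not among the 26. Differences among pools with up to 3 counts (0.162 to 0.170 CPM) were not detectable at this depth. The causes of these changes were not tested.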

Other observations

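The number before the X in the locus tags was unevenly represented. Tags with number 6 held 15 of the 86 genes (0.58% of the 2584 genes of that number with counts), and the other numbers held between 0.149% and 0.395% of theirs. Among the primer targets, the gene for (-)-beta-pinene synthase (LSAT_6X32141), an enzyme of monoterpene synthesis, had no PS reads and a mean of 0.218 CPM in PS+CH, under the limit of 0.3 CPM. Of the 6 members highest in PS+CH replicate 5, 2 besides BHLH42 are given here, which were chosen after their values were seen. LSAT_9X110040 had 0, 3, 1, 0 and 1 counts in PS and 0, 0, 3, 2 and 24 in PS+CH, and LSAT_7X29921 had 5, 0, 4, 6 and 4 counts in PS and 22, 3, 3, 8 and 56 in PS+CH.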
